A study of Mus musculus with 4 samples.

Results

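The 8 homeobox genes *Barx1*, *Nkx2-3*, *Nkx2-5*, *Nkx3-2*, *Six2*, *Isl1*, *Meis1* and *Meis2*, all outside the Hox clusters, were followed through the embryonic gut stroma. They were chosen by name as regional regulators of gut mesenchyme, but they and the lists of other genes were chosen with earlier results of these data known. Counts of members or listed genes beside the share of all genes are therefore a description. All 8 members were among the 28692 genes listed in each of the 4 libraries. Stromal cells came from the small intestine (SI) and the large intestine (LI, dissected with the cecum) of untreated mouse embryos at E12.5, with 2 libraries per region, called SI1, SI2, LI1 and LI2 here after their replicate numbers. All embryos carried the strain label EYFP (C57BL/6), and all cells were sorted in the same way as live, CD45-, Ter119-, CD31-, EpCAM-, Itgb1+ and YFP+. The driver that turned on YFP is not named in the labels, so which lineages the YFP gate admits is not known here. For the E12.5 colon the study describes 2 experiments that each pooled several embryos. It does not describe how the SI libraries were pooled. The p-values measure the spread between the 2 libraries of a region, whatever their source. The labels also call the tissue colonic lamina propria and the cells adult, which goes against their own titles and against the treatment text. Region and stage were taken from the titles.

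Homeobox proteins bind DNA through a shared fold, and along the gut tube their expression in the mesenchyme marks which organ the overlying epithelium will join. *Barx1* is known for the stomach mesenchyme, *Nkx2-5*, *Nkx3-2* and *Six2* for the mesenchyme near the pylorus, and *Nkx2-3* for the mesenchyme of intestine and spleen. *Isl1* is a LIM homeobox factor of motor and enteric neurons, heart progenitors and parts of the foregut mesenchyme. *Meis1* and *Meis2* are TALE homeobox cofactors that bind DNA together with Hox and Pbx proteins.

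After filtering, 22094 cells remained, between 4603 and 6247 per library, with library medians of 4220.5 UMIs per cell in LI1 and 8382 to 8829 in the other 3. UMIs (unique molecular identifiers) count captured mRNA molecules. Between 5 and 11 kept cell barcodes were shared by any 2 libraries. Clusters, built without the 8 genes, gave fibroblast-like (FB-like, clusters 0, 2 and 4, 10688 cells), smooth muscle cell-like (SMC-like, 4863), mesothelial-like (1316) and neural-like cells (clusters 7 and 9, 1246). The other 3981 cells lay in clusters 3, 5 and 8, which remained unnamed. Clusters 0, 2 and 4 had no listed marker among their 10 leading genes, cluster 2 was led mostly by histone genes, and they were called FB-like because they carried FB markers and none of another class among those 10. FB markers were not particular to these clusters. SMC-like cluster 1 and mesothelial-like cluster 6 each had 9 of the 10 FB markers detected in at least 10% of cells. The labels call all cells mesenchymal stromal cells. The 10 FB markers summed to 1303 to 1923 CPM per library in FB-like cells and 130 to 149 CPM in neural-like cells. The 13 neural markers summed to 39.9 to 120 CPM in FB-like cells and 3105 to 4723 CPM in neural-like cells, which go against that label. In mesothelial-like cells the FB markers summed to 1542, 2442, 2611 and 3644 CPM in LI1, LI2, SI1 and SI2. Those sums lay above the FB-like ones (1387, 1923, 1303 and 1858 CPM) in each library. In SMC-like cells they were 1464, 2114, 1411 and 1789 CPM, so FB markers do not set FB-like cells apart from these 2 classes. Levels are CPM, the UMIs of a gene per 1000000 UMIs summed over a class within a library. Because capture at the transcript ends differs between genes and the kit used for each library is not stated, levels were compared between libraries and classes and not between genes.

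Across the 8 genes, *Six2* was the member whose level passed the test between regions, in FB-like and in SMC-like cells and with LI above SI in both. *Nkx2-3*, *Meis1* and *Meis2* had UMIs in every class of every library. *Nkx3-2*, *Barx1* and *Nkx2-5* were near the limit of detection. In FB-like cells, edgeR's quasi-likelihood test called 1 of the 7 members tested, against 3.71% of all 13701 genes tested. In SMC-like cells it called 1 of 6 members, against 1.32% of 12234 genes. In mesothelial-like cells it called 0 of 4 members, against 1.11% of 10646 genes. There 2 members had an unadjusted p under 0.05, and DESeq2 called 1. In neural-like cells it called 0 of 3 members, against 0.31% of 11283 genes, with 2 members under an unadjusted p of 0.05 and 0 called by DESeq2. A replicate block, given among the alternatives at the end, called more members and more of all genes in each class. With at least 10 UMIs, 5 of 8 members in FB-like cells had both LI libraries above both SI libraries, an order that 36.2% of all genes showed. In SMC-like cells it was 5 of 6 members against 33.3%, and in mesothelial-like cells 4 of 6 against 24.6%. By the share of cells with a UMI, thinned to 3000 UMIs per cell, the LI libraries were above the SI libraries for 6 of 8 members in FB-like cells (33.2% of genes), 5 of 6 in SMC-like cells (30.1%) and 5 of 6 in mesothelial-like cells (22%). In neural-like cells 2 of 4 members had both SI libraries above both LI libraries, against 24.7% of genes.

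**Figure D1:**
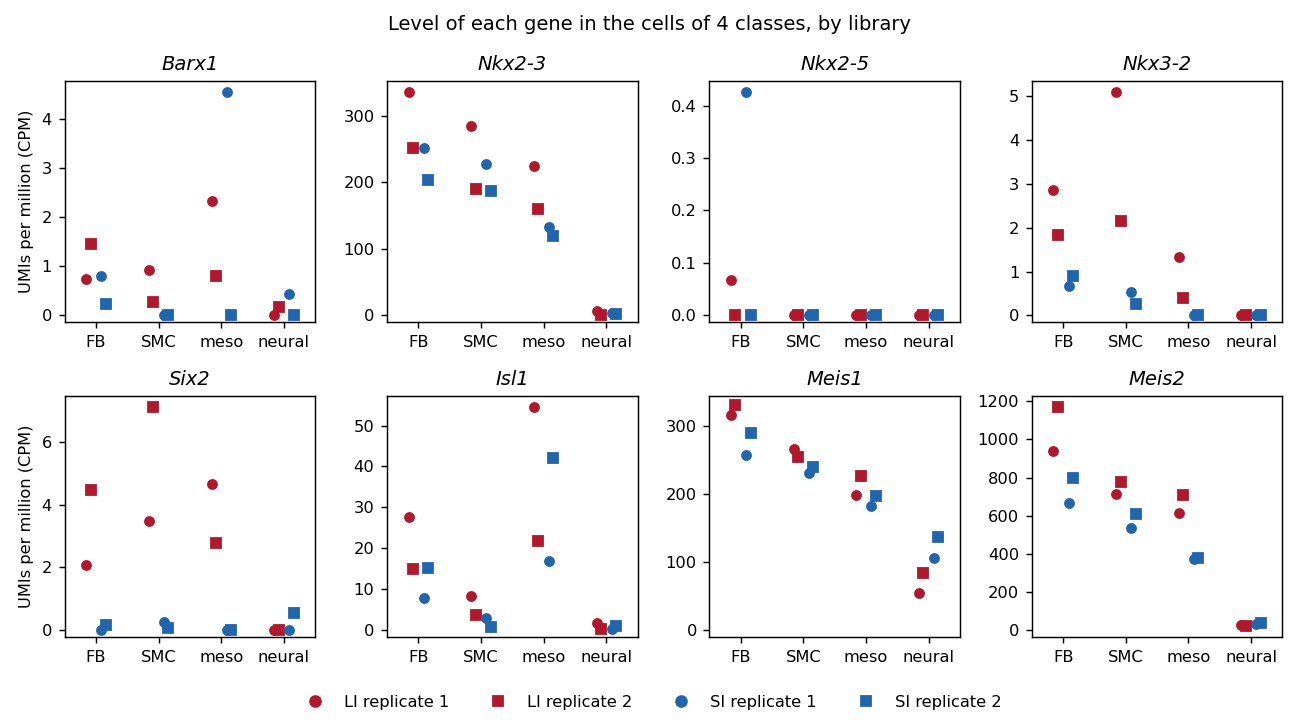
CPM of each of the 8 genes (y axis, its own scale per panel) in FB-like, SMC-like, mesothelial-like and neural-like cells (x axis), with 1 point for each of the 2 LI and 2 SI libraries. *Six2* has points of 2.06 to 7.10 CPM in the LI libraries of the 3 mesenchymal classes and of 0 to 0.271 CPM in the SI libraries, and *Nkx2-3* falls from 203 to 335 CPM in FB-like cells to 1.08 to 5.91 CPM in neural-like cells.

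**Figure D2:**
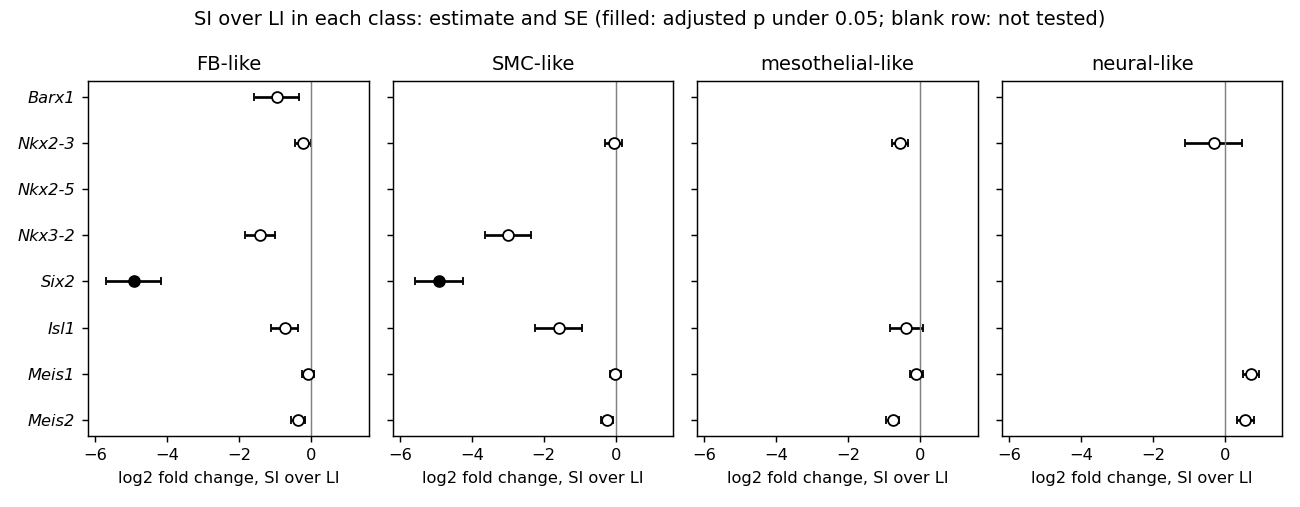
Change from LI to SI on the log2 scale (x axis, with its standard error) for the members tested in each class, from edgeR's quasi-likelihood test on 2 against 2 libraries. Filled points passed an adjusted p of 0.05, and these are *Six2* in FB-like cells at -4.93 and in SMC-like cells at -4.92.

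*Six2* encodes a sine oculis-related factor that also keeps nephron progenitors of the kidney undifferentiated. The gene lies at chr17:85684277-85688274 on the minus strand of mm10. The 250 bases upstream of its RefSeq start (GRCm38.p6, chr17:85688255-85688504, minus strand) are shown because *Six2* was the member called between regions. Those of *Nkx2-3* (chr19:43612075-43612324, plus strand) and *Isl1* (chr13:116309689-116309938, minus strand) are shown as promoters of members that were not called. Each is written 5′ to 3′ along the gene. Capitals mark matches to TGACAG, the core bound by Meis proteins, on either strand.
Six2: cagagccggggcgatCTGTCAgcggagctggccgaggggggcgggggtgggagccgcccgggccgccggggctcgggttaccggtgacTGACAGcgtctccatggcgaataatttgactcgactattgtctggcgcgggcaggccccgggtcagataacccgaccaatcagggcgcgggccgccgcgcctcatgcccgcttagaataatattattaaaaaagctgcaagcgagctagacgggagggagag
Nkx2-3: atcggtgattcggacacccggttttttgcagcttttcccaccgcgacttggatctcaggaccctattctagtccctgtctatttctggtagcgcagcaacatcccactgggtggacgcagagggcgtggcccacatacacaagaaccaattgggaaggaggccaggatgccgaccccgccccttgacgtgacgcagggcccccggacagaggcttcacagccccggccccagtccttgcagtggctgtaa
Isl1: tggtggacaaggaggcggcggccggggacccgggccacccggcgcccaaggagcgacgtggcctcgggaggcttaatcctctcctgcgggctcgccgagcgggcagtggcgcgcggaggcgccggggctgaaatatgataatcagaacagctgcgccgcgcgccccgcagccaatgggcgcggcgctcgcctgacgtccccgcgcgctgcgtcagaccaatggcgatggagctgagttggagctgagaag
The *Six2* window held 2 TGACAG matches, 1 on each strand, and those of *Nkx2-3* and *Isl1* held none. The windows of *Nkx3-2* and *Nkx2-5*, not called between regions either, held 1 match each, and those of *Barx1*, *Meis1* and *Meis2* held none. Of 32851 RefSeq promoter windows of the same length, 15.9% held this motif. The motifs TTTATNG and TNAAGTG, were absent from the 3 windows and were found in 9.81% and 10.1% of all windows. None of the 3 motifs overlapped another match. The GC content was 64.8%, 60.0% and 71.2% for *Six2*, *Nkx2-3* and *Isl1*, against a median of 52.4% over all windows.

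In FB-like cells *Six2* stood at 2.06 CPM in LI1, 4.46 in LI2, 0 in SI1 and 0.179 in SI2, from 31, 102, 0 and 4 UMIs. SMC-like cells stood at 3.47, 7.10, 0.271 and 0.0641 CPM in the same order, from 15, 53, 3 and 1 UMIs. The 10 SMC markers, none at 0, summed to 1494, 5695, 5106 and 10750 CPM in SMC-like cells of LI1, LI2, SI1 and SI2, so the class of LI1 lay below the FB-like cells of SI2 (1969 CPM). The part of this in the SMC-like differences of *Six2* and the other members was not tested. In both classes the 2 LI libraries lay above the 2 SI libraries without overlap. The mean in FB-like cells was 3.26 ± 1.70 CPM in LI and 0.0897 ± 0.127 in SI (SD, n = 2 each). On the log2 scale SI over LI came to -4.93 ± 0.76 (SE) in FB-like cells, with an adjusted p of 0.00909 by edgeR's quasi-likelihood test with Benjamini-Hochberg adjustment over all genes tested. In SMC-like cells it was -4.92 ± 0.67, with an adjusted p of 0.0151 in the same test. Both calls held when any 1 library was left out, and the change in FB-like cells then ran from -4.02 without SI1 to -8.96 without SI2, where SI was at 0 UMIs and the value is no bound. For SMC-like cells the change ran from -4.12 without SI2 to -5.99 without SI1. The pooled UMIs gave LI levels 38.1 times those of SI in FB-like cells (95% counting interval 14.5 to 142) and 38.5 times in SMC-like cells (14.4 to 145). In mesothelial-like cells 14 and 7 UMIs were found in LI1 and LI2 and none in SI1 and SI2, at least 4.78-fold higher in LI against a floor of 3 UMIs over the SI group. Counting intervals and binomial intervals cover counting error only. A fold given as at least sets the observed level against the floor and leaves out the counting error of the observed UMIs, so it is not a confidence limit.

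Few cells had a *Six2* UMI even in LI, 27 of 3427 FB-like cells of LI1 (0.788%) and 86 of 2465 of LI2 (3.49%), against 0 of 2255 in SI1 and 3 of 2541 in SI2. With each cell thinned to 3000 UMIs, 9 of 2732 FB-like cells of LI1 (0.329%) and 33 of 2367 of LI2 (1.39%) had a *Six2* UMI. In SI1 it was 0 of 2228 cells, which allows a share of up to 0.135%, and in SI2 0 of 2507, which allows up to 0.12%. These limits are 3 over the number of cells, which is tighter than a Wilson interval. At this depth a cell that uses a gene of few CPM mostly shows no UMI, so these limits apply to cells with a UMI and not to cells expressing *Six2*. Within the FB-like class *Six2* was uneven. Cluster 2 held 3.81, 7.03, 0 and 0.152 CPM in LI1, LI2, SI1 and SI2, while cluster 4 held 0 UMIs in LI1, LI2 and SI1 and 1 in SI2. Unnamed cluster 3 had 10 and 15 UMIs in LI1 and LI2 and none in either SI library, at least 14.1-fold higher in LI. Outside cluster 8, the *Six2* UMIs of LI lay in 65 cells of LI1 and 157 cells of LI2. Of these, 49 cells of LI1 (75.4%) and 124 of LI2 (79%) also carried *Nkx2-3*, against 64.6% and 71.8% of the cells without *Six2*. *Meis2* was found in 58 (89.2%) and 154 (98.1%) of them, against 90.9% and 94.1%. *Isl1* was found in 10 (15.4%) and 22 (14.0%) of them, against 6.76% and 5.04%. These shares are not thinned, and depth was not matched. Among the FB-like cells of LI2 thinned to 3000 UMIs, 1 of the 33 *Six2* cells carried *Isl1* (3.03%), against 2.74% of the others. *Nkx2-3* was found there in 45.5% against 49.8%, and *Meis2* in 97.0% against 93.8%. The 9 *Six2* cells of LI1 at this depth were under the 30 asked for this comparison.

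A list of 6 urogenital markers was higher in LI too, with a summed level in FB-like cells of 8.77 and 8.66 CPM in LI1 and LI2 and 1.42 and 1.30 CPM in SI1 and SI2. In SMC-like cells it was 8.79, 5.76, 1.44 and 1.09 CPM in LI1, LI2, SI1 and SI2. In mesothelial-like cells it was 3.32, 3.97, 3.63 and 3.19 CPM, with the regions overlapping. Of this list, *Pax8*, a kidney and thyroid factor, had 0 UMIs in FB-like cells of every library, and *Emx2* had 1 UMI in SI2 and none elsewhere. *Pax2*, which marks the nephric lineage, had 2, 3, 1 and 0 UMIs. *Sall1*, a zinc finger factor of kidney and limb, carried most of the difference with 57, 120, 0 and 5 UMIs. *Cited1* had 61, 62, 29 and 21 UMIs and *Crym* 12, 13, 0 and 2, so LI held more of both. Of the 65 and 157 *Six2* cells of LI1 and LI2 outside cluster 8, 3 (4.62%) and 6 (3.82%) carried *Cited1*, against 1.64% and 1.84% of the cells without *Six2*. *Sall1* was found in 1 (1.54%) and 9 (5.73%) of them, against 1.82% and 4.52%, and *Crym* in 0 and 3 (1.91%), against 1.91% and 2.40%. *Pax2*, *Pax8* and *Emx2* were found in none, but at most 0.233% of the cells without *Six2* carried any 1 of these 3, so their absence carries little information. The part of urogenital cells in the *Six2* difference was not tested.

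The count of *Six2* depended on a small unnamed cluster in SI2. Cluster 8 held 9, 158, 34 and 118 cells in LI1, LI2, SI1 and SI2, and in SI2 it held 42 of the 52 *Six2* UMIs of the library (80.8%). These 42 UMIs lay in 25 cells, of which 18 also carried *Pax2*, 22 *Crym*, 16 *Sall1*, 13 *Cited1* and 6 *Pax8*, while 3 carried *Nkx2-3* and 0 *Isl1*. In the SI2 cells of cluster 8 without *Six2*, 9.68% carried *Pax2*, 9.68% *Crym* and 20.4% *Sall1*. The urogenital list reached 259 CPM in cluster 8 of SI2 with none of its 6 markers at 0, and 3.49 CPM in the other cells of that library. The 118 cells of SI2 were led by *Afp*, a gene of embryonic liver and yolk sac, followed by *Foxd1*, a stromal factor of the embryonic kidney, *Rbp4*, the posterior Hox genes *Hoxd11* and *Hoxa10*, and the liver genes *Alb* and *Apoa2*. Over all kept cells *Six2* had 73, 197, 3 and 52 UMIs, and LI was 6.91 times SI (5.15 to 9.41). When all unnamed clusters were added to the FB-like class, the log2 fold change of *Six2* was -2.11 with an adjusted p of 0.331 by edgeR's quasi-likelihood test. With clusters 3 and 5 added and cluster 8 left out, an alternative chosen after seeing the data, it was -4.96 with an adjusted p of 0.0105 in the same test.

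**Figure D3:**
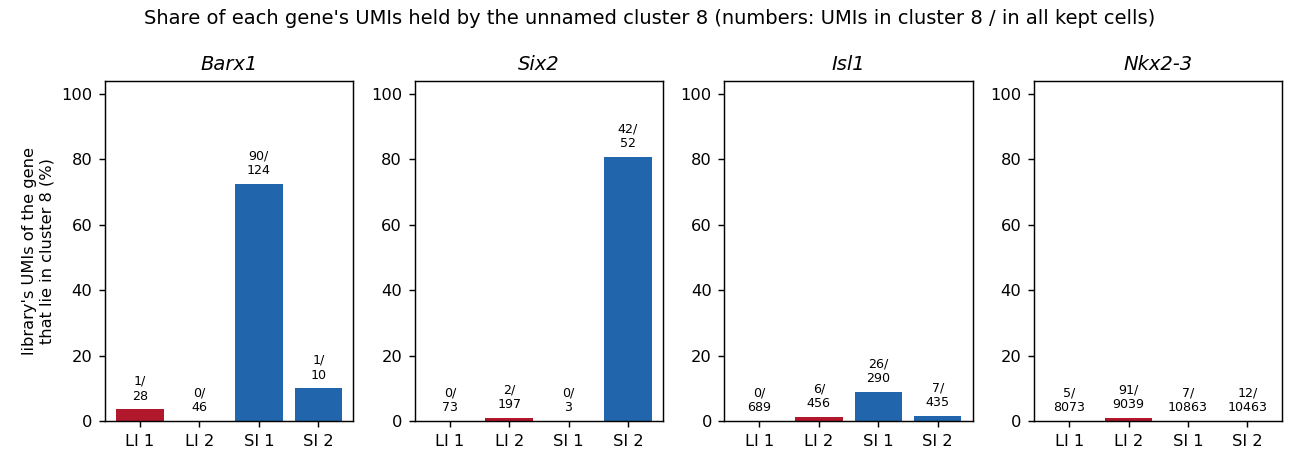
Percent of each library's UMIs of *Barx1*, *Six2*, *Isl1* and *Nkx2-3* (y axis, from 0) that lay in cluster 8, with 1 bar for each of the 4 libraries. In SI1 the cluster held 72.6% of *Barx1* UMIs, and in SI2 it held 80.8% of *Six2* UMIs.

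*Nkx3-2* (also called Bapx1), an NK family repressor of the vertebral column, spleen and stomach mesenchyme, lies at chr5:41761483-41764501 on the minus strand. It was sparse throughout, with 77, 71, 26 and 29 UMIs in 74, 67, 26 and 29 cells of LI1, LI2, SI1 and SI2. In FB-like cells its level was 2.86, 1.84, 0.662 and 0.897 CPM, both LI libraries above both SI libraries. In SMC-like cells it was 5.09, 2.14, 0.541 and 0.257 CPM, again without overlap. On the log2 scale SI over LI came to -1.42 ± 0.42 in FB-like cells (adjusted p = 0.123) and -3.0 ± 0.64 in SMC-like cells (adjusted p = 0.0856) by edgeR's quasi-likelihood test. By DESeq2 the SMC-like value passed, with an adjusted p of 0.0361. It also passed edgeR's test without LI2 (-3.56) or without SI1 (-3.53), and the FB-like value passed without LI2 (-1.76). The pooled UMIs gave LI over SI ratios of 2.86 in FB-like cells (1.90 to 4.40) and 8.60 in SMC-like cells (4.21 to 19.4). Thinned to 3000 UMIs, 0.805% and 0.634% of FB-like cells of LI1 and LI2 had an *Nkx3-2* UMI, and 0.180% and 0.359% of those of SI1 and SI2. *Nkx3-2* had 0 UMIs in neural-like cells of every library, which placed FB-like cells at least 8.77-fold higher.

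*Barx1*, whose product restrains Wnt signalling in the stomach mesenchyme through secreted Sfrp proteins, lies at chr13:48662998-48666507 on the plus strand. In FB-like cells it stood at 0.731, 1.44, 0.804 and 0.224 CPM in LI1, LI2, SI1 and SI2, with the regions overlapping. Its change from LI to SI was -0.96 ± 0.62 on the log2 scale (adjusted p = 0.493, edgeR's quasi-likelihood test), and it ran from -0.29 without SI2 to -2.15 without SI1. The FB-like clusters did not share 1 order. Cluster 0 held 33 *Barx1* UMIs in LI and 3 in SI, a ratio of 9.40 (2.95 to 47.9), whereas cluster 4 held 2 in LI and 18 in SI, a ratio of 0.192 (0.0216 to 0.801), and 14 of these 18 came from SI1. SMC-like cells held 4 and 2 UMIs in LI1 and LI2 and 0 in both SI libraries, at least 4.53-fold higher in LI.

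Over all kept cells *Barx1* had 28, 46, 124 and 10 UMIs, and the high value of SI1 came from cluster 8. There, 34 cells of SI1 held 90 of the 124 UMIs (72.6%), in 16 cells with up to 15 UMIs in 1 cell. Of these 16 cells, 15 carried *Meis2*, 9 carried *Isl1* and 1 carried *Nkx2-3*. The 26 *Isl1* UMIs of cluster 8 in SI1 lay in 9 cells, all of them with *Barx1*. The 34 cells also had a summed level of 1166 CPM for 7 erythroid markers, against 3.23 CPM in the other cells of SI1, and their leading genes included *Pf4*, *Afp* and *Hbb-bt* of platelet, liver and red cell lineages. The part of free RNA or of mixed droplets in these values was not tested. With the unnamed clusters added to the FB-like class, the log2 fold change of *Barx1* changed sign to 0.97, and with cluster 8 left out of them it was -0.99.

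*Nkx2-5*, a heart factor that is also used at the pylorus and in the spleen, lies at chr17:26838664-26845009 on the minus strand. It had 2, 1, 10 and 0 UMIs over all kept cells of LI1, LI2, SI1 and SI2. The 10 UMIs of SI1 lay in 7 cells, 1 of which held 4, and 9 of the 10 UMIs were in FB-like cluster 0. It was not tested in any class, and no difference between regions could be detected at this depth.

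*Nkx2-3*, an NK family factor needed for villus growth and for homing receptors of the gut vasculature, lies at chr19:43612325-43615892 on the plus strand. It separated mesenchymal from neural cells. In FB-like cells its level was 335, 252, 252 and 203 CPM in LI1, LI2, SI1 and SI2, LI2 and SI1 being nearly equal, and in neural-like cells 5.91, 1.08, 3.47 and 1.28 CPM, with no overlap between the classes. The log2 fold change of neural-like against FB-like cells was -6.64 ± 0.26, in a comparison in which 50.6% of all genes were called, and the pooled UMIs gave FB-like levels 106 times higher (78.9 to 147). Thinned to 3000 UMIs, 58.4%, 49.8%, 51.2% and 42.1% of FB-like cells of LI1, LI2, SI1 and SI2 had an *Nkx2-3* UMI, against 1.42%, 0.383%, 0.940% and 0.467% of neural-like cells. The neural-like level was 0.350% to 1.33% of the FB-like level in cluster 7 and 0.762% to 6.40% in cluster 9, and whether it comes from free RNA, doublets or the cells themselves was not tested.

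Between regions no *Nkx2-3* difference was called in the named classes by the main test. With a replicate block, an alternative given at the end, the mesothelial-like difference was called. In SMC-like cells it stood at 285, 190, 228 and 187 CPM, with the regions overlapping, and in mesothelial-like cells at 224, 160, 133 and 119 CPM, with LI above SI. Its changes from LI to SI on the log2 scale were -0.22 ± 0.22 in FB-like, -0.06 ± 0.23 in SMC-like and -0.56 ± 0.22 in mesothelial-like cells, and none passed edgeR's quasi-likelihood test (adjusted p = 0.690, 0.957 and 0.373). The mesothelial-like value passed without LI2 (-0.79). Unnamed cluster 3 had the opposite order, with 237 and 181 CPM in LI1 and LI2 and 350 and 275 CPM in SI1 and SI2. This cluster led with *Bmp3*, *Col14a1* and *Rgs5*. In unnamed cluster 8 *Nkx2-3* stood at 155, 163, 11.0 and 9.20 CPM from 5, 91, 7 and 12 UMIs, with LI above SI (pooled ratio 16.6, 10.1 to 28.7), in cells whose leading genes differed between the libraries.

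*Isl1* lies at chr13:116298281-116309689 on the minus strand. Within the FB-like class it was concentrated in cluster 4. This cluster led with *Anxa2*, *Wnt4*, *Tac2*, *Ccl2*, *Slit2* and *Cxcl1* besides *Isl1* itself, although *Isl1* was not used to build it. *Isl1* stood at 117, 64.7, 28.6 and 57.1 CPM in cluster 4 of LI1, LI2, SI1 and SI2, at 9.54, 5.39, 4.91 and 0.799 CPM in cluster 0 and at 18.0, 11.0, 3.11 and 0.611 CPM in cluster 2. In every library cluster 4 lay above both other clusters, and in cluster 4 the LI libraries lay above the SI libraries. Thinned to 3000 UMIs, 76 of 379 cluster 4 cells of LI1 (20.1%, Wilson 95% interval 16.3 to 24.4), 37 of 309 of LI2 (12%, 8.81 to 16.1), 28 of 375 of SI1 (7.47%, 5.22 to 10.6) and 64 of 653 of SI2 (9.80%, 7.75 to 12.3) had an *Isl1* UMI. The intervals of LI2 and SI2 overlap.

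Over the whole FB-like class *Isl1* stood at 27.6, 14.9, 7.80 and 15.3 CPM, so that LI2 lay below SI2. Cluster 4 made up 12.2% and 12.8% of the FB-like cells of LI1 and LI2 and 16.9% and 25.9% of those of SI1 and SI2, so the class holds more cells of cluster 4 in SI. Its change from LI to SI on the log2 scale was -0.74 ± 0.37 in FB-like cells (adjusted p = 0.366) and -1.59 ± 0.66 in SMC-like cells (adjusted p = 0.405) by edgeR's quasi-likelihood test. The FB-like value passed without LI2 (-1.15) or without SI2 (-1.27), and the SMC-like value passed without SI1 (-2.87). In SMC-like cells the levels were 8.33, 3.75, 2.98 and 0.706 CPM, without overlap.

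Mesothelial-like cells carried more *Isl1* than the pooled FB-like class and SMC-like cells less, but FB-like cluster 4 alone lay above the mesothelial-like level in each of the 4 libraries. The mesothelial-like levels were 54.5, 21.9, 16.8 and 42.1 CPM, and they exceeded the pooled FB-like level in each of the 4 libraries. The log2 fold change of mesothelial-like against FB-like cells was 1.03 ± 0.14 (adjusted p = 0.000420), in a fit with the library as a block that called 37.2% of all genes. For SMC-like against FB-like cells it was -2.23 ± 0.35 (adjusted p = 0.00389), where 21.8% of all genes were called, both by edgeR's quasi-likelihood test. In the FB-like class 10 of 11 mesothelial markers were detected in each library, and their summed level was 142, 73.4, 54.6 and 35.1 CPM in LI1, LI2, SI1 and SI2. The part of mesothelial cells or of their RNA in the FB-like *Isl1* level was not tested. In neural-like cells *Isl1* had 4, 1, 1 and 5 UMIs, all in cluster 9, which led with the neuronal genes *Cartpt*, *Stmn2* and *Tubb3*, and none in cluster 7, which led with the enteric progenitor genes *Foxd3*, *Sox10* and *Erbb3*.

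**Figure D4:**
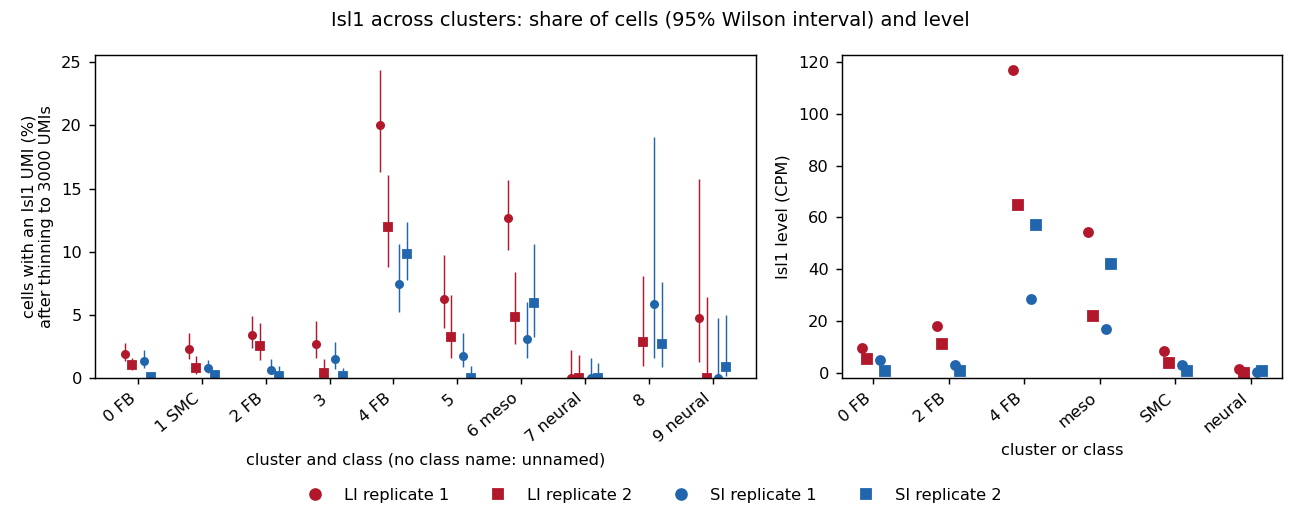
Share of cells with an *Isl1* UMI after thinning to 3000 UMIs per cell (percent, with Wilson 95% intervals, for clusters with at least 20 cells) and *Isl1* level (CPM), by cluster or class and with 1 point for each of the 4 libraries. Cluster 4 stands at 7.47% to 20.1% of cells and 28.6 to 117 CPM, and the cells of FB-like cluster 0 stand at 0.799 to 9.54 CPM.

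*Meis2* lies at chr2:115863064-116065839 and *Meis1* at chr11:18879817-19018985, both on the minus strand. Exons of *Meis1* overlap those of the antisense gene *Gm16140*. In FB-like cells *Meis2* stood at 939, 1171, 669 and 800 CPM in LI1, LI2, SI1 and SI2, and *Meis1* at 316, 330, 257 and 290 CPM. For both genes the LI libraries lay above the SI libraries, and neither passed edgeR's quasi-likelihood test, with changes from LI to SI of -0.37 ± 0.19 (adjusted p = 0.378) and -0.09 ± 0.17 (adjusted p = 0.852) on the log2 scale. In SMC-like cells *Meis2* stood at 715, 777, 536 and 608 CPM and *Meis1* at 266, 255, 231 and 239 CPM, again with LI above SI. The adjusted p of the SMC-like differences was 0.651 for *Meis2* and 0.994 for *Meis1* in the same test.

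The difference between regions was larger for *Meis2* in mesothelial-like than in FB-like cells. In mesothelial-like cells *Meis2* stood at 616, 710, 372 and 377 CPM, with a mean of 663 ± 66.7 CPM in LI and 374 ± 3.94 CPM in SI (SD, n = 2 each). On the log2 scale SI over LI came to -0.77 ± 0.18, with an adjusted p of 0.0785 by edgeR's quasi-likelihood test and 0.0338 by DESeq2. It passed edgeR's test without LI1 (-0.84) or without LI2 (-0.69). The share of mesothelial-like cells with a *Meis2* UMI after thinning to 3000 UMIs was 81.1% and 79.8% in LI1 and LI2 and 65.8% and 64.3% in SI1 and SI2. The interaction of region and class, which compares this difference with that of FB-like cells, was -0.41 ± 0.11 on the log2 scale with an adjusted p of 0.0275 by edgeR's quasi-likelihood test, where 4.72% of all genes were called. It was lost with DESeq2 (adjusted p = 0.349), without LI1 (0.437), without SI2 (0.241) and without TMM scaling (-0.30, adjusted p = 0.109, chosen after seeing the data). *Meis1* in mesothelial-like cells stood at 199, 226, 182 and 198 CPM, with LI above SI but LI1 and SI2 close together. For SMC-like against FB-like cells 0 members were called in the interaction by edgeR's quasi-likelihood test, against 0.774% of all genes, and 2 had an unadjusted p under 0.05.

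Neural-like cells ran the other way. *Meis1* stood there at 55.3, 83.4, 107 and 137 CPM and *Meis2* at 26.2, 19.9, 33.6 and 36.5 CPM, and for both genes the SI libraries lay above the LI libraries. On the log2 scale SI over LI came to 0.73 ± 0.23 for *Meis1* (adjusted p = 0.304) and 0.57 ± 0.23 for *Meis2* (adjusted p = 0.555) by edgeR's quasi-likelihood test. The *Meis1* value passed without LI2 (1.02). The difference from the FB-like class did pass. The interaction of region and class was 0.82 ± 0.14 for *Meis1* (adjusted p = 0.00307) and 1.01 ± 0.19 for *Meis2* (adjusted p = 0.00537) in the same test, where 10.9% of all genes were called. *Six2* was called as well (adjusted p = 0.0336), on 0 UMIs in neural-like cells of LI and 3 UMIs in 1 cell of SI2, for which no fold is given. Without LI2 the *Meis2* interaction was 0.55 with an adjusted p of 0.0788. Without TMM scaling, which moved the median of all genes by 0.20, the interactions were 1.02 and 1.21.

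Both neural clusters showed the order for *Meis1*. In cluster 7 *Meis1* stood at 38.6, 52.3, 61.1 and 81.8 CPM in LI1, LI2, SI1 and SI2, and in cluster 9 at 145, 219, 267 and 307 CPM. *Meis2* stood at 20.6, 14.8, 22.3 and 24.0 CPM in cluster 7 and at 56.4, 42.2, 73.5 and 75.3 CPM in cluster 9. Cluster 9 made up 20%, 21.2%, 24.2% and 25.2% of the neural-like cells. With cluster 7 alone, chosen after seeing the data, the interaction was 0.67 for *Meis1* (adjusted p = 0.0133) and 0.83 for *Meis2* (adjusted p = 0.0360) by edgeR's quasi-likelihood test. With cluster 9 alone it was 0.71 (adjusted p = 0.00107) and 1.11 (adjusted p = 0.000140).

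The neural-like level of *Meis1* was 17.5%, 25.3%, 41.5% and 47.1% of the FB-like level of the same library. That of *Meis2* was 2.79%, 1.70%, 5.03% and 4.56%, and that of *Nkx2-3* 1.76%, 0.427%, 1.38% and 0.634%. The median of 10 FB markers, measured in the same way, was 4.52%, 2.38%, 3.89% and 1.20%. Single FB markers ran from 1.31% to 32.0% in LI1, 0% to 90.2% in LI2, 1.32% to 306% in SI1 and 0% to 245% in SI2. *Meis1* and *Meis2* lay inside this range in the pooled class, but a range this wide cannot set a gene apart from FB markers. Against the median, *Meis1* was higher in every library, and *Meis2* was lower in LI and higher in SI. In cluster 7 *Meis1* and *Meis2* also lay inside the range of the FB markers in every library. In cluster 9 *Meis1* stood at 45.8%, 66.3%, 103.7% and 105.9% of the FB-like level in LI1, LI2, SI1 and SI2, beside a highest FB marker of 49.9%, 20.4%, 46.9% and 39.9%, so it lay above the whole range in LI2, SI1 and SI2. *Meis2* lay inside it there too. The 13 neural markers in neural-like cells summed to 3105, 3897, 4414 and 4723 CPM, a level that moves with the regions as *Meis1* does. Its part in the *Meis1* and *Meis2* differences was not tested.

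**Figure D5:**
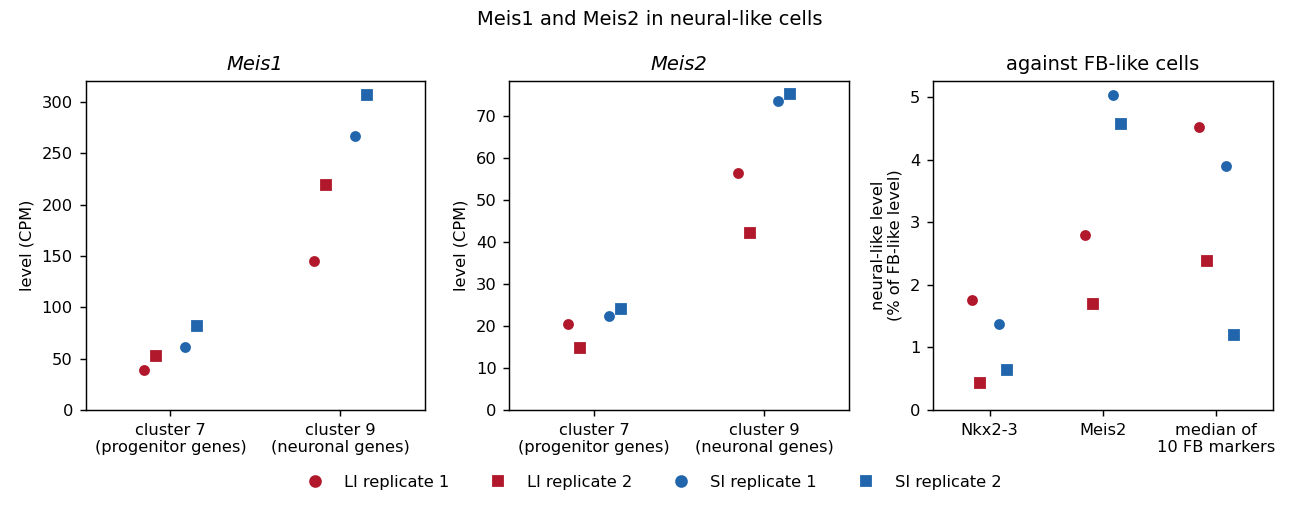
*Meis1* and *Meis2* levels (CPM) in neural-like clusters 7 and 9, and the neural-like level as a percent of the FB-like level for *Nkx2-3*, *Meis2* and the median of 10 FB markers, with 1 point for each of the 4 libraries. *Meis1* stands at 38.6 and 52.3 CPM in LI and at 61.1 and 81.8 CPM in SI within cluster 7, and *Meis2* reaches 4.56% and 5.03% of the FB-like level in SI.

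Between classes, *Nkx2-3*, *Meis1* and *Meis2* had log2 fold changes of -0.72, -0.57 and -0.81 in mesothelial-like against FB-like cells and of -0.18, -0.22 and -0.39 in SMC-like against FB-like cells, all called by edgeR's quasi-likelihood test. The *Nkx2-3* call in SMC-like cells was lost without LI1, LI2 or SI1 (-0.18, -0.14 and -0.20). In neural-like against FB-like cells *Meis2* was lower by a log2 fold change of -4.89, *Isl1* of -4.55 and *Meis1* of -1.65. Together with *Nkx2-3* and *Nkx3-2* this made 5 of 6 members called in that comparison, against 50.6% of all genes. In mesothelial-like against FB-like cells it was 4 of 7, against 37.2%, and in SMC-like against FB-like cells 4 of 7, against 21.8%.

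Expression patterns over the 16 sums of 4 classes and 4 libraries were compared by Pearson's r of log2(CPM + 5) as a description. The sums share libraries and depth. The pattern of *Nkx2-3* was most like those of *Hand1*, *Twist2* and *Cgnl1* (each 0.99), and that of *Meis2* like *Cox6b2* and *Ssbp2* (0.99) and *Lpar1* (0.98). *Six2* was most like the posterior Hox genes *Hoxa11* (0.93), *Hoxa10* (0.92) and *Hoxd11* (0.91). *Isl1* was most like *Ntm* (0.95), *Arid5b* (0.94) and *Slc25a25* (0.92). Among the members, *Nkx2-3* and *Meis2* had an r of 0.98 and *Meis1* and *Meis2* of 0.94. Within FB-like cells thinned to 3000 UMIs, *Meis2* was found in 90.7% of *Nkx2-3* cells and 89.5% of the others in LI1, in 94.7% and 93% in LI2, in 85.1% and 84.0% in SI1 and in 89.8% and 89.6% in SI2. With *Meis2* in nearly all cells, these shares leave little room for a difference.

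The remaining genes of these families were read from lists of relatives and partners, tested in the same fits. In FB-like cells 0 of 10 TALE partners tested (16 listed, such as the Pbx genes) were called, with a median change from LI to SI of -0.095 on the log2 scale, beside 0.0082 over all genes, of which 3.71% were called. Of the partners of the *Six2* family 1 of 8 tested was lower in SI, *Dach1*, a corepressor that works with Eya proteins, which stood at 8.50, 9.18, 0.284 and 0.404 CPM in LI1, LI2, SI1 and SI2. Its log2 fold change was -4.51 ± 0.34 (adjusted p = 0.000200, edgeR's quasi-likelihood test). Of the NK, LIM and BarH relatives 0 of 7 tested (31 listed) were called, with a median of -0.14. Of the paired and other homeobox genes 3 of 12 were lower in SI, with a median of -0.53. Among them were *Pitx1*, a hindlimb and hindgut factor, at 190, 142, 0 and 0.269 CPM, and the chromatin organiser *Satb1* at 38.3, 46.7, 9.88 and 12.8 CPM.

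Of 11 tested genes tied to these members in stomach, pylorus and spleen, 2 were higher and 2 lower in SI, with a median of 0.22. The same test in FB-like cells called 3.71% of all genes. *Sfrp1*, a secreted Wnt antagonist downstream of *Barx1* in the stomach, stood at 106, 92.1, 496 and 365 CPM in FB-like cells of LI1, LI2, SI1 and SI2, with SI above LI. Its log2 fold change was 2.27 ± 0.22 (adjusted p = 0.000832, edgeR's quasi-likelihood test), and it was called higher in SI in SMC-like and mesothelial-like cells as well. The BMP antagonist *Grem1* stood at 5.18, 2.89, 28.3 and 16.5 CPM (2.65 ± 0.37, adjusted p = 0.00523), while its ligand *Bmp4* stood at 42.0, 47.2, 19.7 and 19.1 CPM (-1.05 ± 0.19, adjusted p = 0.0160). *Sox9*, a target of BMP signalling at the pylorus, stood at 14.9, 17.2, 3.40 and 3.28 CPM (-2.11 ± 0.23, adjusted p = 0.00129). In neural-like cells the listed genes called were *Tlx2*, an enteric neuron factor, higher in SI, and *Prrx1* and *Dach1*, lower in SI.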

How the data were processed

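Droplet single-cell RNA-seq libraries (10x Genomics, 3′ v3 or 5′ kit, which per library is not stated) were read from the deposited counts. Per the labels, the authors aligned to mm10 with Cell Ranger 3.1.0 and deposited raw UMI counts per gene and barcode. They then used Seurat 3, a step not used here.

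Here, cells with at least 1000 genes and under 10% mitochondrial UMIs were kept. Doublet scores came from Scrublet (scanpy 1.11.5), whose automatic threshold marked only 1 to 6 cells per library, so the highest-scoring cells were removed at 0.8% per 1000 cells (183 to 348). Clusters came from Seurat 5.3.0 (anchor integration, 30 components, Louvain 0.3) without the members, Hox genes or listed genes. Names rest on marker lists, by a rule set after the clusters were seen, so they may differ from the study's. A class name needed at least 3 of its markers among the top 10 genes. FB-like was the name for clusters with no other class's marker there and at least 3 FB markers detected in at least 10% of cells. Unnamed clusters and those of the other classes also met the part on FB markers. Each unnamed cluster had a marker of another list among its top 10 genes. UMIs summed per library and class were tested with edgeR 4.0.16 (TMM, its default expression filter, quasi-likelihood, Benjamini-Hochberg over all genes tested, call under 0.05), and class and interaction fits had the library as a block. DESeq2 1.42.0, no filter, other thinning, a replicate block, left-out libraries and other class limits were alternatives. With 2 against 2 libraries, an exact permutation test cannot go below a two-sided p of 0.333. Shares have Wilson 95% intervals, the limits printed for 0 cells are 3 over the number of cells, and floors are 3 UMIs. Library totals were 31630548, 49793211, 52160160 and 62886525 UMIs in LI1, LI2, SI1 and SI2. Replicate libraries differed beyond sampling noise (chi-square per degree of freedom 2.8 to 34.1). Genes named outside the members were those called on the lists (at most 4 per direction and list) and the 3 most alike per member. Not every such gene is reported here. The members and lists were chosen with earlier results of these data known.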

Additional observations from a re-analysis of the deposited data

Results flagged for a closer look

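The following values are given because an effect of region differed between classes, or because a signal lay in cells outside the 4 named classes. In the interaction of region and class, edgeR's quasi-likelihood test gave an adjusted p of 0.0275 for *Meis2* in mesothelial-like against FB-like cells, where SI over LI was -0.77 and -0.37 on the log2 scale. This call was lost with DESeq2 (0.349), without LI1 (0.437), without SI2 (0.241) and without TMM (0.109). In neural-like against FB-like cells it gave 0.00307 for *Meis1* (0.73 and -0.09) and 0.00537 for *Meis2* (0.57 and -0.37), the latter lost without LI2 (0.0788). It also gave 0.0336 for *Six2*, which rests on 3 neural-like UMIs in 1 cell. In unnamed cluster 8, which belongs to none of the 4 named classes, *Barx1* had 90 UMIs in SI1 and *Six2* had 42 UMIs in SI2.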

How the results depend on the processing

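Of 465 alternative values for single members, 399 kept direction and side of the threshold, 9 fell below it, 26 passed it and 31 changed sign. Of 53 single-member values, 27 held in every alternative. Where a region keeps 1 library, that library is assumed to vary like the others. With 2 libraries per region, low counts of *Barx1*, *Nkx2-5* and *Nkx3-2* limit what can be detected. The causes of the changes below were not tested.

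With a replicate block, 2 members were called in FB-like, 2 in mesothelial-like, 3 in SMC-like and 1 in neural-like cells, and 1885, 743, 867 and 408 of all genes (508, 118, 162 and 35 without the block). Same-numbered libraries had correlated deviations (r 0.30, 0.23, 0.40 and 0.31), but the labels do not say that a number marks an experiment, and 2 pairs cannot settle it. The block added *Nkx3-2* in FB-like cells (-1.39), *Nkx3-2* (-2.99) and *Isl1* (-1.70) in SMC-like cells, *Meis2* (-0.76) and *Nkx2-3* (-0.54) in mesothelial-like cells and *Meis1* (0.75) in neural-like cells. Without a filter on low counts, 3, 2, 3 and 1 members were called, and 1369, 420, 867 and 362 genes. More genes enter the tests without the filter, so these counts cannot be set against those with it. For the other alternatives too, counts are given without the number tested. In that setting the SMC interaction had 465 genes (105 before). DESeq2 called 1 member in mesothelial-like cells, 2 in SMC-like cells and 0 in the mesothelial interaction, and 290 SMC-like, 103 neural-like, 157 (mesothelial), 69 (SMC) and 752 (neural interaction) genes, and 1909 between SMC-like and FB-like cells, against 162, 35, 623, 105, 1450 and 2959. Without TMM 0 members were called in the mesothelial interaction. The called genes with a positive value then went from 29.5% to 18.9% in FB-like cells, from 38.4% to 57.2% in the mesothelial and from 38.7% to 76.3% in the neural interaction, while the median of all genes moved to -0.14 in FB-like and -0.13 in SMC-like cells. With the unnamed clusters added, 0 members were called in FB-like cells. Cluster 9 alone gave 55 genes, and 697 in the neural interaction. Both LI libraries had the larger share of cells for 6 members in FB-like cells and 5 in mesothelial-like cells (33.2% and 22% of genes), for 3 and 3 without thinning (2 of these 3 mesothelial-like members had the 10 UMIs asked of the background of 5.33% and 4.93%), and for 3 in mesothelial-like cells at 2000 UMIs (22.2%).

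Sign changes, all of values that did not pass, were *Barx1* in FB-like cells with unnamed clusters added (0.97), *Meis1* in SMC-like cells without a filter (0.015), *Nkx2-3* with cluster 7 alone in neural-like cells (0.36) and in the neural interaction (0.54, and 0.14 without TMM), *Isl1* in the neural interaction with cluster 9 alone (-0.020), *Meis1* in the mesothelial interaction (0.012 with DESeq2, 0.083 without TMM), *Six2* in the SMC interaction with DESeq2 (0.11) and *Nkx3-2* between SMC-like and FB-like cells with DESeq2 (-0.088).

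Leaving out 1 library gave 1 to 3 members called in FB-like, 0 to 2 in mesothelial-like, 1 to 3 in SMC-like and 0 to 1 in neural-like cells, and 0 to 1, 0 to 1 and 1 to 3 in the mesothelial, SMC and neural interactions. Of all genes it called 518 to 1836, 102 to 893, 207 to 1129 and 0 to 1473 in the 4 classes and 208 to 715, 87 to 685 and 620 to 1159 in the interactions, and 1501 to 2733 between SMC-like and FB-like cells. It moved *Nkx2-3* from -0.45 to 0.0091 in FB-like, -0.32 to 0.26 in SMC-like and -1.46 to 1.07 in neural-like cells, *Isl1* from -1.13 to 0.46 in mesothelial-like cells and *Meis1* from -0.037 to 0.031 in SMC-like cells. In the mesothelial interaction it moved *Meis1* from -0.068 to 0.078 and *Barx1* from -5.11 to 2.94, in the SMC interaction *Six2* from -2.06 to 4.30 and *Isl1* from -2.54 to 0.43, and in the neural interaction *Nkx2-3* from -1.02 to 1.06 and *Isl1* from -0.50 to 1.82. Between classes it moved *Six2* from -0.69 to 1.03 (mesothelial-like) and *Nkx3-2* from -0.36 to 0.43 (SMC-like).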
